A study of Mus musculus with 4 samples.

Results

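Oligodendrocyte lineage cells were taken from 4 droplet single-cell RNA libraries of the subdural meninges peeled off the cerebellum of young mice. The cells were chosen by measured values: a barcode had to show 500 genes or more, 1000 UMIs or more, no more than 10% of UMIs from mitochondrial genes, no Ptprc, at most 2 UMIs of Col1a2, at most 1 UMI of Neurod1, and at least 2 of the 7 genes Olig1, Olig2, Sox10, Cspg5, Bcas1, Mag and Mog, with Olig1, Olig2 or Sox10 among them. A UMI is a molecular tag that stands for 1 captured transcript. The rule gave 312 lineage cells of 38722 kept barcodes (0.806%). Every mouse had 1 allele of the transgene Neurod2-SmoA1, an activated form of the Hedgehog transducer Smoothened driven in the granule neuron lineage. NdpKO; SmoA1+/- mice also lacked Ndp, the gene for norrin, and NdpWT; SmoA1+/- mice kept it. Each genotype had 2 libraries, and each library was a pool of 5 cerebella, with 3 litters used in a run and 4 separate runs in which the genotypes were matched by litter. The sample fields give an age of 6 to 8 days after birth and the protocol 7 to 9 days. The dura stayed with the skullcap, choroid plexus was not collected, and a 22% Percoll spin cleared debris from the cells. The comparison addresses how these glial cells differ when norrin is missing, in mice that all carry the transgene.

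Oligodendrocytes wrap axons in myelin, a stack of membrane that is rich in cholesterol and galactolipids. They come from precursors that divide in response to platelet-derived growth factor through the receptor Pdgfra. A precursor that leaves the cell cycle passes through a committed state, marked by genes such as Gpr17, Enpp6 and Bmp4, before it makes myelin proteins such as Mbp, and the genes Mal, Mobp, Ermn and Opalin come on last. In the mouse cerebellum these steps take place in the first weeks after birth, mainly in the white matter. The Wnt effector Tcf7l2 is known to mark the step between precursor and myelinating cell, and oligodendrocyte precursors in the brain make the Wnt ligands Wnt7a and Wnt7b, which act on endothelial cells beside norrin.

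The 312 lineage cells numbered 37 and 33 in NdpKO replicates 1 and 2 and 154 and 88 in NdpWT replicates 1 and 2. They held 702323 and 311910 UMIs in the NdpKO and 1844424 and 970250 UMIs in the NdpWT libraries. The median lineage cell had 15678 and 7876 UMIs in NdpKO and 8934.5 and 10216.5 UMIs in NdpWT. No lineage cell barcode was shared between libraries, while 15 to 48 kept barcodes were shared by each pair of libraries. NdpKO replicate 1 stood apart in quality: 44.1% of its barcodes were kept, against 66.0% in NdpKO replicate 2 and 64.8% and 67.0% in the NdpWT libraries, and 21.8% of its barcodes were over the mitochondrial limit. Red cell transcripts gave 84424 CPM (counts per 1000000 UMIs) in its lineage cells, against 17475 to 18694 CPM in the other 3 libraries, so the 5 red cell genes were left out of the totals behind the CPM given for single genes. They stayed in the totals behind CPM sums over marker lists.

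Ndp, the targeted gene, lies at chrX:16885521-16911774 on the minus strand (GRCm38). Its lineage cell UMIs were 0 and 0 in NdpKO and 10 and 3 in NdpWT. In astroglia, counted by markers of their own, they were 0 and 0 in NdpKO and 11 and 4 in NdpWT. Outside these cells Ndp was listed at 0.42 and 0.49 CPM in NdpKO and 2.06 and 1.47 CPM in NdpWT. The deleted stretch of the gene is not stated in the labels, so tags left in the NdpKO libraries are given as values only. A count of 0 allows up to 4.67 and 9.79 CPM in the NdpKO lineage cells (3 counts of the total), near the 5.52 and 3.15 CPM of NdpWT, so a loss of Ndp in the lineage cells themselves was not detectable at this depth.

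The cells were first held against their label. Sox10, a transcription factor of the whole lineage, was detected in 182 of 312 cells (58.3%), namely 30 and 23 in NdpKO and 99 and 30 in NdpWT. Of the 7 rule genes, 64 cells held 2, 57 held 3, 52 held 4 and 139 held 5 to 7. Just outside the rule lay 106 barcodes with 1 rule gene that was Olig1, Olig2 or Sox10, 103 with none of these 3, 32 with 2 Neurod1 UMIs, 3 with 3 Col1a2 UMIs and 3 with 1 Ptprc UMI, and just inside it lay 61 cells with 1 Neurod1 UMI and 16 with 2 Col1a2 UMIs. After each barcode was thinned to 2000 UMIs, 204 of the 274 cells deep enough still met the rule.

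RNA of other cell types was present. Granule lineage genes reached 5 or more UMIs in 3 and 3 NdpKO and 10 and 36 NdpWT lineage cells, which is 8.11% and 9.09% in NdpKO and 6.49% and 40.9% in NdpWT, so NdpWT replicate 2 stood apart. The summed granule markers of lineage cells were 171 and 263 CPM in NdpKO and 159 and 551 CPM in NdpWT. Astroglial markers summed to 406 and 244 CPM in NdpKO and to 764 and 598 CPM in NdpWT. Schwann cells, the myelinating glia of nerves, share Mbp and Mag with oligodendrocytes, and their 8 own markers summed to 1.42 and 6.41 CPM in NdpKO and 11.4 and 10.3 CPM in NdpWT, with 2 of the 8 at 0 in every library. Melanocytes, which also use Sox10, had 243 CPM of marker RNA in NdpWT replicate 1 and 15.5 to 35.6 CPM in the other 3 libraries. In NdpWT replicate 1, 413 of the melanocyte marker UMIs came from 1 cell of 8106 UMIs. An alternative count left out 42 lineage cells (8 and 4 in NdpKO, 15 and 15 in NdpWT) for RNA of other types. These held 2 or more UMIs of Schwann or melanocyte markers, or 5 or more of fibroblast, endothelial, mural or macrophage markers. Granule and astroglial markers were not part of that count. In NdpKO replicate 1 it left 7 of the 14 myelinating cells defined below, with 71711 of their 347267 UMIs. Those left out included cells of 29244 and 84467 UMIs with 3 melanocyte UMIs each. The cut is a number of UMIs and not a share, so deep cells meet it more easily. The part of depth in this count was not tested. Among the barcodes with the highest doublet scores were 0 and 1 NdpKO and 11 and 5 NdpWT cells.

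Lineage cells made up 0.650% and 0.303% of kept barcodes in NdpKO and 1.65% and 0.687% in NdpWT. The means were 0.476 ± 0.245% in NdpKO and 1.17 ± 0.683% in NdpWT (SD, n = 2 each). Both NdpKO shares lay below both NdpWT shares, but 2 libraries against 2 cannot give a p below 0.333, and that was the p of the difference of -0.693 percentage points (exact two-sided permutation test). The groups overlapped in 4 of 8 alternatives that kept all libraries. Without cells of 5 or more granule UMIs the shares were 0.597% and 0.276% in NdpKO and 1.55% and 0.406% in NdpWT, and they also overlapped with at least 3 marker genes, after thinning to 2000 UMIs and over barcodes without Ptprc and with low Col1a2 (p = 0.667 in each, exact two-sided permutation test). Astroglia numbered 13 and 34 in NdpKO and 94 and 38 in NdpWT. Lineage cells per astroglial cell were 2.85 and 0.971 in NdpKO and 1.64 and 2.32 in NdpWT, so the groups overlapped on that scale. How much parenchyma came off with the meninges in each pool was not tested.

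Lineage cells were split by 3 genes. Precursors had at least 1 UMI of Pdgfra, at chr5:75152292-75198215, and none of Mag or Mog. Myelinating cells had Mag, at chr7:30899176-30914873, or Mog, at chr17:37010743-37023398, and no Pdgfra (all GRCm38). By this rule, 118 were precursors, 98 were neither, 86 were myelinating and 10 held both kinds of gene. Precursors numbered 10 and 14 in NdpKO and 62 and 32 in NdpWT. The cells of neither kind numbered 12 and 12 in NdpKO and 38 and 36 in NdpWT, and the myelinating cells 14 and 6 in NdpKO and 48 and 18 in NdpWT. Precursors were 27.0% and 42.4% of the NdpKO and 40.3% and 36.4% of the NdpWT lineage cells, and the groups overlapped (difference of means -3.59 points, exact two-sided permutation p = 1). Without NdpKO replicate 1 the difference was 4.11 points, and without the cells that held RNA of other types it was 0.264 points.

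**Figure D1:**
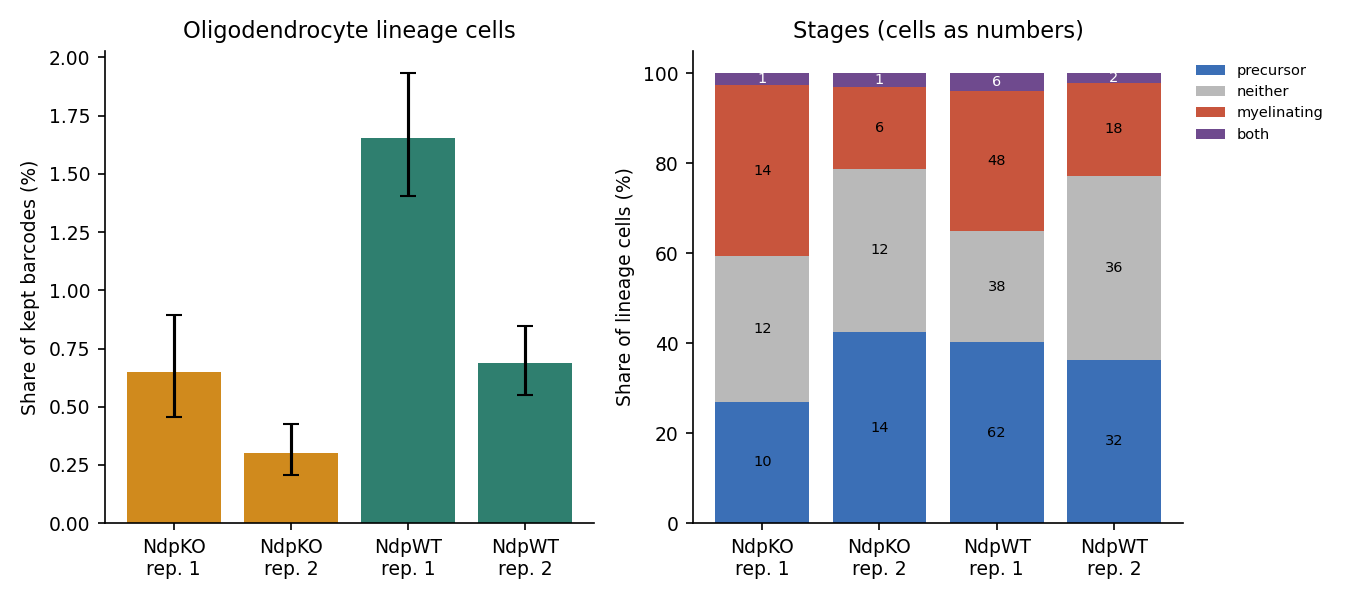
Left, share of kept barcodes (%) that were oligodendrocyte lineage cells in each library, with exact 95% binomial intervals that cover counting error only; right, share of lineage cells (%) in each stage, with the number of cells written in. The 2 NdpKO shares, 0.650% and 0.303%, lie below the NdpWT shares of 1.65% and 0.687%, a separation that was lost without cells of 5 or more granule UMIs, while the precursor shares of the genotypes overlap.

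Depth differed between stages. The median UMIs were 12477 in precursors, 9881 in cells of neither kind and 3984 in myelinating cells. Myelinating cells of NdpKO replicate 1 were deeper, with a median of 25823 UMIs, against 3995.5 in NdpKO replicate 2 and 3984 and 2360.5 in the NdpWT libraries. Granule markers at 5 or more UMIs were seen in 19 of 118 precursors, 29 of 98 cells of neither kind and 3 of 86 myelinating cells. Of these, 14 precursors and 20 cells of neither kind were from NdpWT replicate 2, where they made up 43.8% and 55.6% of the stage. In these 14 precursors the precursor markers took a median of 0.0372% of UMIs, against 0.529% in the other 18 precursors of that library, so its precursor values rest partly on cells rich in granule RNA. After thinning to 2000 UMIs, Pdgfra was detected in 61.4% of precursors, against 14.6% of granule lineage cells and 3.08% of macrophages, and without thinning the last 2 shares were 43.7% and 13.2%. Counting precursors from 2 Pdgfra UMIs moved the genotype difference to -0.12 points.

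The 12 myelin markers and the 10 precursor markers summed per cell spread the lineage from precursor to myelinating. The myelin markers include Mag and Mog and the precursor markers Pdgfra, so part of this spread was set by the stage rule. The myelin markers took a median of 0.0288% of UMIs in precursors, 0.0352% in cells of neither kind and 2.70% in myelinating cells, with up to 22.7% in a myelinating cell of NdpWT replicate 1. The precursor markers took a median of 0.509%, 0.150% and 0.0342% in precursors, cells of neither kind and myelinating cells. By library, the myelin markers took a median of 1.41% and 2.22% of a myelinating cell's UMIs in NdpKO and 6.92% and 2.61% in NdpWT. Summed over the myelinating cells of a library, the precursor markers took 0.178% and 0.250% of UMIs in NdpKO and 0.132% and 0.127% in NdpWT. Of these marker UMIs, Tnr gave 415 and 85 in NdpKO and 299 and 89 in NdpWT. The rest of the list was not higher in NdpKO.

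**Figure D2:**
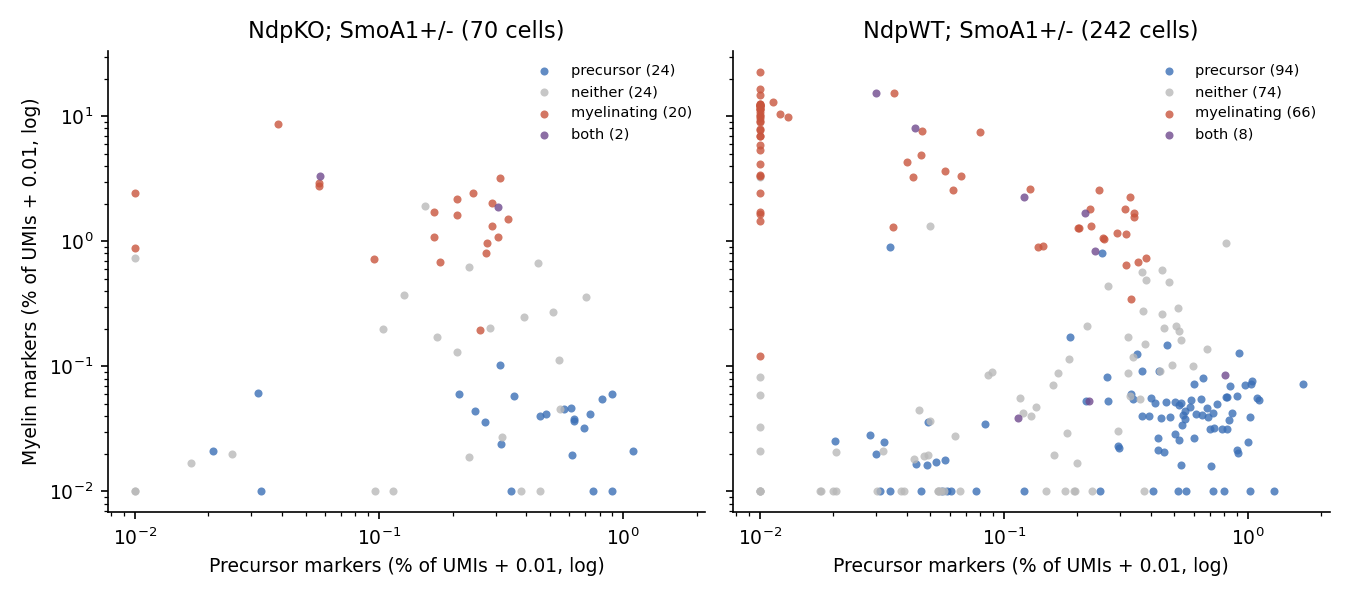
Each point is a lineage cell, by the share of its UMIs from 10 precursor markers (x) and 12 myelin markers (y). Both shares have 0.01 added and are on log axes. Colours give the stage, which used Pdgfra, Mag and Mog, and these genes are also among the markers on the axes. NdpKO cells (left) and NdpWT cells (right) run from low myelin and high precursor RNA to the reverse.

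Since the stages were cut from the same cells, the difference between myelinating cells and precursors is given as a description with no test. Counts were summed per library and stage, and the change is the log2 ratio of CPM plus 10, as the mean ± SD over 4 libraries. Of 9731 genes with at least 20 UMIs in these stages, 612 (6.29%) were at least 2-fold higher and 1560 (16.0%) at least 2-fold lower in myelinating cells with the same direction in 4 of 4 libraries. The median gene was -0.30 in log2, and when each library was centred on its median gene the counts were 976 higher and 943 lower, so that 50.9% of the genes called were higher with centring and 28.2% without it. Counts for gene groups below are therefore given with the centred count beside them.

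Of 20 precursor genes, 12 were lower in myelinating cells and 1, Tnr, was higher (centred, 11 and 1). Pdgfra is part of the rule. Cspg4, the NG2 proteoglycan on the precursor surface, had 3.1 and 0 CPM in the NdpKO and 5.44 and 7.56 CPM in the NdpWT libraries for myelinating cells, against 202 and 244 CPM in the NdpKO and 245 and 146 CPM in the NdpWT libraries for precursors (log2 -3.97 ± 0.62). Ptprz1, a receptor phosphatase, had 359.8 and 387 CPM in the NdpKO and 391 and 310.1 CPM in the NdpWT libraries for myelinating cells, against 1570.5 and 2269.9 CPM in the NdpKO and 2292 and 1109 CPM in the NdpWT libraries for precursors (log2 -2.24 ± 0.35). These libraries did not overlap between the stages for either gene. Lhfpl3 (-3.07 ± 0.59), Cacng4, a regulatory subunit of glutamate receptors (-3.45 ± 0.75), and the cadherin Pcdh15 (-3.07 ± 0.70) were lower as well. The matrix proteoglycan Vcan was near level (-0.44 ± 0.55, lower in 3 of 4 libraries). Tnr, tenascin-R, a matrix glycoprotein of oligodendrocytes and nodes, had 1287 and 1937 CPM in the NdpKO and 542 and 673 CPM in the NdpWT libraries for myelinating cells, against 418 and 212 CPM in the NdpKO and 260.1 and 114 CPM in the NdpWT libraries for precursors (log2 2.06 ± 0.93).

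Genes lowest in myelinating cells beyond the rule's own Pdgfra and Cspg5 included regulators of the precursor state and of division. The RNA-binding protein gene Zfp36l1 (-4.40 ± 0.75), Ddah1 (-4.13 ± 0.87), the calcium sensor Kcnip3 (-4.08 ± 0.53), cyclin D1 (Ccnd1, -4.02 ± 0.60), topoisomerase Top2a (-3.91 ± 1.67), Cdo1 (-3.85 ± 0.42), Sox11 (-3.79 ± 0.81) and the metalloprotease Mmp15 (-3.75 ± 0.50) were among the 12 with the largest drop. Kcnip3 and Cdo1 had 0 UMIs in the myelinating cells of every library.

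Cell cycle genes were seen in part of the precursors. All 10 cell cycle genes were lower in myelinating cells (centred, 7 of 10). The proliferation marker Mki67 had 9.31 and 45.6 CPM in the NdpKO and 5.44 and 121 CPM in the NdpWT libraries for myelinating cells, against 20.2 and 887 CPM in the NdpKO and 310.4 and 739 CPM in the NdpWT libraries for precursors (log2 -2.89 ± 1.70), and the precursors of NdpKO replicate 1 were the lowest of the 4. With each cell thinned to 2000 UMIs, at least 2 of the 10 genes were detected in 2 of 10 and 7 of 14 NdpKO precursors and in 17 of 58 and 17 of 32 NdpWT precursors. These shares of 20% and 50% in NdpKO and 29.3% and 53.1% in NdpWT overlapped (difference of means -6.22 points, exact two-sided permutation p = 0.667). The difference was 8.78 points without NdpKO replicate 1 and 5.69 points without NdpWT replicate 2. Granule lineage cells, which divide in this tumour model, passed the same mark in 39.7% and 36.9% in NdpKO and 33.1% and 46.1% in NdpWT, and myelinating cells in 0 of 13 and 0 of 4 in NdpKO and 0 of 35 and 3 of 11 in NdpWT. Without precursors of 5 or more granule UMIs the genotype difference was -6.27 points. Without precursors of over 10% red cell UMIs it was -0.81 points, with shares of 28.6% and 53.8% in NdpKO and 30.9% and 53.1% in NdpWT. Red cell genes gave 18.8% of the precursor UMIs in NdpKO replicate 1, the highest of the 4 libraries. These UMIs stayed in the totals that were thinned.

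Of 14 described committed precursor genes, 13 were higher in myelinating cells than in precursors, with or without centring, among them the rule gene Bcas1. Enpp6, a choline phosphodiesterase of newly formed oligodendrocytes at chr8:46986887-47096762 (GRCm38), had 1752 and 2758 CPM in the NdpKO and 747 and 741 CPM in the NdpWT libraries for myelinating cells, against 53.9 and 0 CPM in the NdpKO and 4.91 and 5.32 CPM in the NdpWT libraries for precursors (log2 6.04 ± 1.44). Bmp4, a secreted morphogen, had 558 and 593 CPM in the NdpKO and 413 and 265 CPM in the NdpWT libraries for myelinating cells, against 13.5 and 8.14 CPM in the NdpKO and 29.4 and 5.32 CPM in the NdpWT libraries for precursors (log2 4.31 ± 0.69). Fyn, the kinase that links axon contact to myelin protein synthesis, had 2466 and 2963 CPM in the NdpKO and 1549 and 1777 CPM in the NdpWT libraries for myelinating cells, against 661 and 293 CPM in the NdpKO and 426 and 199 CPM in the NdpWT libraries for precursors (log2 2.53 ± 0.77). The levels of each of these 3 genes did not overlap between the stages. The cells of neither kind lay between, with 1422 and 833 CPM in the NdpKO and 941 and 738 CPM in the NdpWT libraries for Fyn and 309 and 185 CPM in the NdpKO and 211 and 175 CPM in the NdpWT libraries for Bmp4. They were a mixed class, in which 29 of 98 cells held 5 or more granule UMIs. Their astroglial markers summed to 1409 and 208 CPM in NdpKO and 3500 and 1097 CPM in NdpWT. The part of such RNA in the levels between was not tested.

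Gpr17, a receptor that marks the committed state and holds back maturation, was the exception (log2 0.97 ± 1.23, higher in 3 of 4 libraries). It had 917 and 155 CPM in the NdpKO and 296 and 95.7 CPM in the NdpWT libraries for precursors, 1047 and 703 CPM in the NdpKO and 831 and 384 CPM in the NdpWT libraries for cells of neither kind and 620.3 and 593 CPM in the NdpKO and 426 and 431 CPM in the NdpWT libraries for myelinating cells. Its level in the cells of neither kind was the highest of the 3 stages in all but NdpWT replicate 2. After thinning to 2000 UMIs, Gpr17 was detected in 32.5% of precursors, 35.6% of cells of neither kind and 52.4% of myelinating cells, against 0.154% of macrophages, which should lack it. Enpp6 was detected in 2.63%, 20.7% and 77.8% of the same 3 stages and in 0.231% of macrophages.

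Of 25 described myelin and mature genes, 15 were higher and 0 lower in myelinating cells (centred, 22 and 0). Mag and Mog belong to the rule. Mbp, myelin basic protein, had 10332 and 7909 CPM in the NdpKO and 11723 and 10074 CPM in the NdpWT libraries for myelinating cells, against 40.4 and 8.14 CPM in the NdpKO and 89.6 and 34.6 CPM in the NdpWT libraries for precursors (log2 7.79 ± 0.77). Cnp, a myelin-associated phosphodiesterase, had 4156 and 3487 CPM in the NdpKO and 5525 and 4477 CPM in the NdpWT libraries for myelinating cells, against 411 and 73.2 CPM in the NdpKO and 228 and 74.5 CPM in the NdpWT libraries for precursors (log2 4.74 ± 1.08), and the tight junction protein of myelin Cldn11 changed by 5.14 ± 1.07. Neurofascin (Nfasc, 5.41 ± 0.47), the tubulin Tubb4a (4.77 ± 0.81) and the deacetylase Sirt2 (4.33 ± 0.97) were also among the 12 largest. After thinning to 2000 UMIs, Mbp was detected in 7.02% of precursors, 20.7% of cells of neither kind and 96.8% of myelinating cells, against 5.04% of macrophages. The precursor share of Mbp was thus near that of macrophages, taken as a class that should lack it. Free RNA itself was not measured.

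Among the latest myelin genes the libraries parted. Mobp had 1324 and 0 CPM in the NdpKO and 3350.3 and 4402 CPM in the NdpWT libraries for myelinating cells, Mal, a raft protein of compact myelin, had 3.1 and 0 CPM in the NdpKO and 2078 and 537 CPM in the NdpWT libraries, and Ermn, ermin, an actin-binding protein of mature oligodendrocytes at chr2:58045113-58052864 (GRCm38), had 34.1 and 0 CPM in the NdpKO and 535 and 446 CPM in the NdpWT libraries. In precursors the 3 genes had 7 UMIs in all. None of the 3 therefore met the condition of 4 of 4 libraries, because NdpKO replicate 2 had none of their UMIs.

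**Figure D3:**
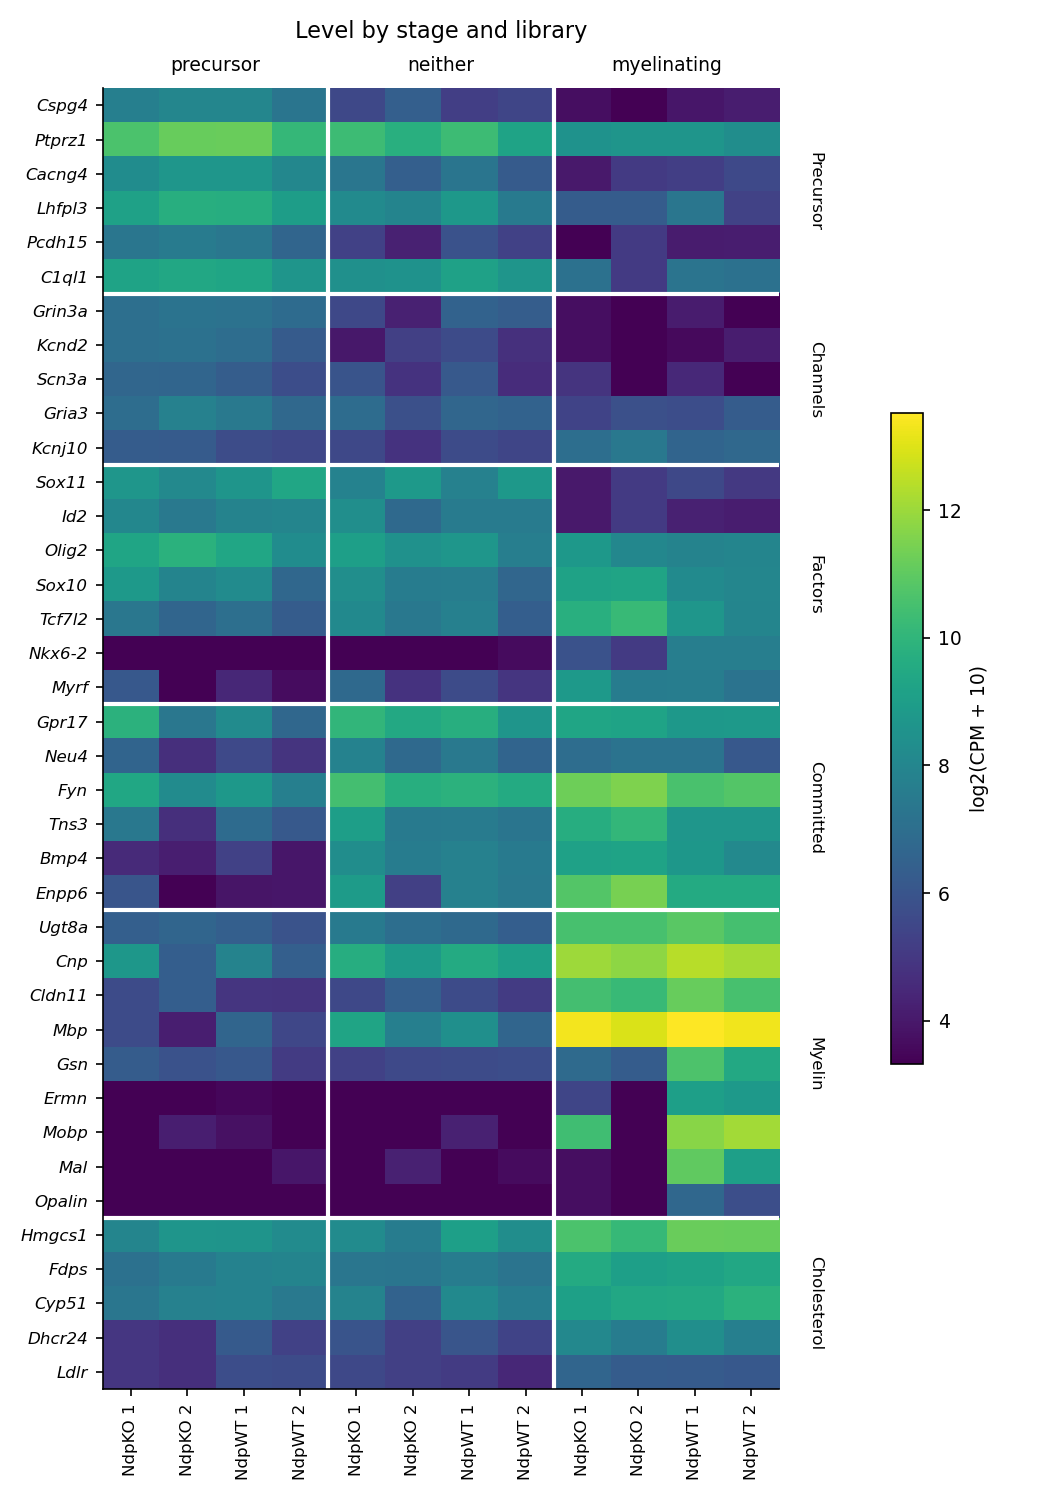
Level of 38 genes as log2(CPM + 10) in the summed cells of each stage (columns grouped as precursor, neither and myelinating, each with the 2 NdpKO and the 2 NdpWT libraries); gene groups are named on the right. Precursor genes and the channel genes other than Kcnj10 fade from precursor to myelinating columns, while Kcnj10 and the myelin and cholesterol genes brighten. Gsn, Ermn, Mobp, Mal and Opalin are bright mainly in the NdpWT columns of myelinating cells.

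Of 22 lineage transcription factor genes described, 6 were higher in myelinating cells (Myrf, Nkx6-2, Zfp365, Tcf7l2, Zfp488 and Sox2) and 6 lower (Sox11, Id2, Sox5, Sox3 and Olig2 among them), and centring made this 8 and 4. Myrf, the membrane-bound factor that turns on the myelin programme, had 431 and 182 CPM in the NdpKO and 192 and 136 CPM in the NdpWT libraries for myelinating cells, against 60.7 and 0 CPM in the NdpKO and 12.3 and 2.66 CPM in the NdpWT libraries for precursors (log2 3.40 ± 0.68). Tcf7l2 had 862 and 1162 CPM in the NdpKO and 402 and 242 CPM in the NdpWT libraries for myelinating cells, against 155 and 89.5 CPM in the NdpKO and 124 and 69.1 CPM in the NdpWT libraries for precursors (log2 2.31 ± 0.90). Nkx6-2 had 49.6 and 22.8 CPM in the NdpKO and 196 and 197 CPM in the NdpWT libraries for myelinating cells and 0 UMIs in the precursors of all 4 libraries. In NdpKO replicate 2 precursors a count of 0 allows up to 24.4 CPM, so no rise can be read in that library. Id2, an inhibitor of differentiation, went the other way with 6.2 and 22.8 CPM in the NdpKO and 9.06 and 7.56 CPM in the NdpWT libraries for myelinating cells, against 256 and 163 CPM in the NdpKO and 228 and 237 CPM in the NdpWT libraries for precursors (log2 -3.47 ± 0.73). Sox10 (0.75 ± 0.68) and Nkx2-2 (0.43 ± 0.99) did not keep 1 direction in 4 of 4 libraries. Olig2 (-1.04 ± 0.73) is a gene that the member rule used.

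Cholesterol is the limiting lipid of myelin, and most genes of its synthesis and uptake were higher in myelinating cells. Of 22 genes, 19 were higher and 0 lower in myelinating cells (centred, 20 and 0), with a median log2 of 1.40 against -0.30 over all described genes. The first step towards mevalonate, Hmgcs1, had 1591 and 1117 CPM in the NdpKO and 2294 and 2261 CPM in the NdpWT libraries for myelinating cells, against 243 and 391 CPM in the NdpKO and 375 and 289.9 CPM in the NdpWT libraries for precursors (log2 2.41 ± 0.63). Lss, which closes the sterol rings, had 171 and 159.5 CPM in the NdpKO and 92.4 and 144 CPM in the NdpWT libraries for myelinating cells, against 6.74 and 16.3 CPM in the NdpKO and 30.7 and 37.2 CPM in the NdpWT libraries for precursors (log2 2.29 ± 0.95). Idi1, an isomerase of the isoprenoid steps, had 378 and 866 CPM in the NdpKO and 564 and 930.3 CPM in the NdpWT libraries for myelinating cells, against 115 and 187 CPM in the NdpKO and 196 and 173 CPM in the NdpWT libraries for precursors (log2 1.91 ± 0.42). None of these 3 overlapped between the stages. The gene of the factor that drives the pathway, Srebf2, was level (-0.08 ± 0.94, higher in 2 of 4 libraries).

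The promoters of these genes are known to carry sterol response elements and CCAAT boxes, so the windows from 250 bases before to 50 after the gene start were searched on both strands in the RefSeq promoter table (GRCm38.p6). The element TCACNCCAC was present in 1.24% of 32851 windows and in 1 of 19 windows of the list, that of Hmgcs1. CCAAT was present in 37.4% of all windows and in 15 of 19 list windows, which came from 16 matched genes of the 22. The windows of Hmgcs1 (chr13:119690101-119690400), Lss (chr10:76531355-76531654) and Idi1 (chr13:8885356-8885655), the 3 cholesterol genes with a CCAAT box and the largest change in myelinating cells, are shown on the plus strand, which is that of all 3 genes, with matched letters in capitals. CCAAT on the minus strand reads ATTGG, and all boxes in these windows lie that way.
Hmgcs1: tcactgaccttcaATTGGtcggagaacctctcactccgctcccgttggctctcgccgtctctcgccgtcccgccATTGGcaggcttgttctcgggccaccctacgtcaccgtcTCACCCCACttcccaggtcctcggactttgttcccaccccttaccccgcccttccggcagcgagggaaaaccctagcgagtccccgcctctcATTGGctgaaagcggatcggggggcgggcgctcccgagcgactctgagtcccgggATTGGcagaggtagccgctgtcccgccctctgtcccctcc
Lss: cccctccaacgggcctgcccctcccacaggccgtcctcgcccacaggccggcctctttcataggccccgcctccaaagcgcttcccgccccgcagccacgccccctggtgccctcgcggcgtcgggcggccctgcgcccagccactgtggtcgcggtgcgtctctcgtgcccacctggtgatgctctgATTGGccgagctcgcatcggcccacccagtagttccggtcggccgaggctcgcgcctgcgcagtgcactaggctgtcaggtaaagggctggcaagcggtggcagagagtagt
Idi1: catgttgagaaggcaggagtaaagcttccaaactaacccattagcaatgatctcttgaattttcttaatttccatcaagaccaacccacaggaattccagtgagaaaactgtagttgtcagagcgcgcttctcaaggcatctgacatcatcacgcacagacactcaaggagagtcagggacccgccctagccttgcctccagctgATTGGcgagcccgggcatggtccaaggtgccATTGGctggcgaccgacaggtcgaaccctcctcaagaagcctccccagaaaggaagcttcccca
Hmgcs1 holds 4 CCAAT boxes, at positions 14, 75, 206 and 261 of its window, and the sterol element TCACCCCAC at positions 114 to 122. Lss holds 1 box at position 189, and Idi1 holds 2, at 206 and 237. The motifs do not overlap in these windows. A match of letters describes the sequence and does not show that a factor was bound.

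Genes of myelin lipid synthesis shared the direction: 9 of 17 were higher and 0 lower (centred, 11 and 0). Ugt8a, which makes galactosylceramide, had 1495 and 1504 CPM in the NdpKO and 1894 and 1452 CPM in the NdpWT libraries for myelinating cells, against 74.1 and 89.5 CPM in the NdpKO and 76.1 and 50.5 CPM in the NdpWT libraries for precursors (log2 4.29 ± 0.30). Fa2h, which hydroxylates the fatty acid of that lipid, changed by 3.73 ± 0.84 and Gal3st1, which adds sulphate to it, by 2.63 ± 0.52. Fatty acid synthase, Fasn, did not meet the condition (0.69 ± 0.77, higher in 3 of 4 libraries).

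Ion channel and transmitter receptor genes were mostly lower in myelinating cells, at 11 of 18, with 1 higher (the same with centring). Precursors are known to receive synapses from neurons. The glutamate receptor subunit gene Grin3a had 3.1 and 0 CPM in the NdpKO and 7.25 and 0 CPM in the NdpWT libraries for myelinating cells, against 121 and 138 CPM in the NdpKO and 134 and 109 CPM in the NdpWT libraries for precursors (log2 -3.46 ± 0.35). The potassium channel Kcnd2 (-3.17 ± 0.73), the sodium channel Scn3a (-2.35 ± 0.70) and the AMPA receptor subunit Gria3 (-1.44 ± 0.67) were lower too. Kcnj10, the inward rectifier Kir4.1 of glia, was the higher one, with 118 and 159.5 CPM in the NdpKO and 87 and 98.3 CPM in the NdpWT libraries for myelinating cells, against 67.4 and 65.1 CPM in the NdpKO and 41.7 and 34.6 CPM in the NdpWT libraries for precursors (log2 1.02 ± 0.25).

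Among 17 described receptor genes, 3 were higher (Lpar1, Gpr37 and Fgfr2) and 5 lower, Pdgfra of the rule among them (centred, 4 and 4). Fgfr2 had 46.5 and 114 CPM in the NdpKO and 58 and 45.4 CPM in the NdpWT libraries for myelinating cells, against 6.74 and 0 CPM in the NdpKO and 9.81 and 2.66 CPM in the NdpWT libraries for precursors (log2 2.32 ± 0.89), while Fgfr1 went the other way (-1.22 ± 0.27). The ligand gene Pdgfa, which feeds the precursors' receptor, was higher in myelinating cells, with 307 and 296 CPM in the NdpKO and 207 and 159 CPM in the NdpWT libraries for myelinating cells, against 60.7 and 89.5 CPM in the NdpKO and 71.2 and 77.1 CPM in the NdpWT libraries for precursors (log2 1.54 ± 0.50). Of 18 guidance and adhesion genes 4 were higher and 7 lower (centred, 6 and 7), and Sema5a, a semaphorin of oligodendrocytes, was among the higher ones (1.32 ± 0.86). Of 19 stress genes that tissue dissociation is known to induce, 9 were lower and 0 higher (centred, 5 and 0). Of 15 hypoxia and glycolysis genes 1, Bnip3, was higher and 1 lower (centred, 2 and 0), and of 13 genes for angiogenic and secreted factors Pdgfa was higher and 3 were lower (centred, 1 and 2). MHC class I genes B2m (-1.76 ± 1.15) and H2-D1 (-1.64 ± 0.90) were the 2 lower ones of 6 genes described from the MHC class I and interferon list, with 0 higher (the same with centring).

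Norrin signals through Fzd4, Lrp5, Lrp6 and Tspan12. Fzd4 had 0 and 2 UMIs in NdpKO and 3 and 15 UMIs in NdpWT over all lineage cells, at most 15.8 CPM. Tspan12, the tetraspanin partner of Fzd4, had 27.9 and 0 CPM in the NdpKO and 38.1 and 15.1 CPM in the NdpWT libraries for myelinating cells, against 87.6 and 81.4 CPM in the NdpKO and 93.2 and 45.2 CPM in the NdpWT libraries for precursors (log2 -1.70 ± 1.00). Of 7 described genes for Wnt ligands and receptors 4 were lower and 0 higher in myelinating cells (centred, 2 and 0). Wnt7b had 0 UMIs in the myelinating cells of every library, against 27 and 81.4 CPM in the NdpKO and 19.6 and 21.3 CPM in the NdpWT libraries for precursors. A count of 0 allows up to 9.31 and 68.4 CPM in NdpKO and 5.44 and 22.7 CPM in NdpWT myelinating cells. In NdpWT replicate 2 this limit lies above the precursor level of Wnt7b, so no drop can be read there. In NdpKO replicate 2 it lies near the precursor levels of Wnt7b and Tspan12. Wnt7a had 0 and 1 UMIs in NdpKO and 5 and 2 UMIs in NdpWT over all lineage cells. Of 11 Wnt target and antagonist genes, Tcf7l2 and Daam2 were higher and 5 were lower (centred, 2 and 3), and the universal target Axin2 was level (-0.06 ± 0.81).

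The SmoA1 transgene acts in granule neurons, and the Hedgehog list in lineage cells showed 1 of 9 genes higher and 5 lower in myelinating cells (centred, 1 and 3). Hhip, which binds Hedgehog ligands and is itself a target, had 118 and 68.4 CPM in the NdpKO and 92.4 and 60.5 CPM in the NdpWT libraries for myelinating cells, against 6.74 and 24.4 CPM in the NdpKO and 6.13 and 26.6 CPM in the NdpWT libraries for precursors (log2 1.93 ± 1.01). Ptch1, the receptor and a target, had 13.5 and 81.4 CPM in the NdpKO and 66.2 and 194 CPM in the NdpWT libraries for precursors, 65.5 and 157 CPM in the NdpKO and 39.8 and 216 CPM in the NdpWT libraries for cells of neither kind and 40.3 and 91.2 CPM in the NdpKO and 43.5 and 121 CPM in the NdpWT libraries for myelinating cells. NdpWT replicate 2, the library with the most granule RNA, was the highest for Ptch1 in all 3 stages. The part of granule RNA in that level was not tested.

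Between the genotypes, UMIs summed per library were tested with edgeR's quasi-likelihood test and Benjamini-Hochberg adjustment over all genes tested. In all lineage cells, 0 of 8818 genes passed (0% called), with 265 at an unadjusted p under 0.05 and a lowest adjusted p of 0.966. In precursors 0 of 5091 passed (0% called), with 131 at an unadjusted p under 0.05. DESeq2 called Gfap and Apoe in all lineage cells and 0 genes in precursors. Gfap, an astroglial filament gene, had 9 and 1 UMIs in NdpKO and 282 and 84 UMIs in NdpWT, and Apoe, the lipid carrier of astroglia and macrophages, had 145 and 54 UMIs in NdpKO and 1169 and 617 UMIs in NdpWT. Over all lineage cells Gfap had 3.26 to 156 CPM and Apoe 176 to 648 CPM, against 169 to 1465 CPM of Gfap and 4118 to 9491 CPM of Apoe in astroglia.

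In counts drawn at the depth of all lineage cells, the test found 5.41% of genes changed 2-fold and 77.2% of those changed 4-fold, and in those of precursors 5.06% and 72.9%, so moderate differences would mostly go unseen. The precursor genes Pdgfra (log2 fold change 0.32, SE 0.33), Cspg4 (0.11, SE 0.33) and Ptprz1 (0.12, SE 0.36) had estimates within their error in precursors (edgeR, adjusted p = 0.997 for each). The estimates ran the same way within some lists. All 14 committed precursor genes tested in all lineage cells had a positive estimate, with a median log2 of 0.83, and 7 of 21 myelin genes had one, with a median of -0.49, beside a median of -0.0042 and 49.5% positive estimates for all genes. The stages were mixed unequally in these sums. Myelinating cells gave 347267 of 702323 and 43915 of 311910 UMIs in NdpKO, and 560996 of 1844424 and 132408 of 970250 UMIs in NdpWT. The part of this mix in the list estimates was not tested. In precursors, 18 of 18 precursor genes had a positive estimate (median 0.31) and 1 of 18 cholesterol genes had one (median -0.48), beside 49.7% of all genes. The precursors of NdpWT replicate 2 had the lowest sum of precursor markers, and without cells of 5 or more granule UMIs these counts were 11 of 18 (median 0.07) and 2 of 13 (median -0.36). Committed precursor genes in precursors went from 8 of 8 positive estimates (median 0.42) to 1 of 6 (median -0.19) when those cells were left out. No gene of any of the 17 lists passed in either test.

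Myelinating cells were too few for a planned test, since NdpKO replicate 2 had 6 and the planned minimum was 10 cells a library. A test with a minimum of 5 cells was added after the values had been seen, and its results are to be read with the cell numbers of 14 and 6 in NdpKO and 48 and 18 in NdpWT. The summed cells held 347267 and 43915 UMIs in NdpKO and 560996 and 132408 UMIs in NdpWT, and the deepest cell gave 24.3% and 38.8% of those in NdpKO and 13.2% and 35.1% in NdpWT. Of 4117 genes, 67 passed (1.63%), 13 higher (0.316%) and 54 lower (1.31%) in NdpKO. At an unadjusted p under 0.05 there were 397. DESeq2 called 18. Few of these calls held without the deepest cells. When the deepest cell of each library was left out, a choice made after the data had been seen, 3 of 3281 genes passed, 0 higher and 3 lower in NdpKO (Ermn, Mobp and Tmem141), and of the 67 genes 42 could be tested and 2 passed. The deepest cell of NdpKO replicate 1 had 84467 UMIs, of which 14.1% were red cell UMIs. In counts drawn at the full depth the test found 0% of 2-fold and 87.8% of 4-fold changes.

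Part of the mature myelin genes were lower in the NdpKO myelinating cells. Of 21 myelin and mature genes tested that the rules had not used, 8 were lower and 0 higher in NdpKO, where 1.31% of all genes tested were lower. Most myelin genes rose in the cells that Mag or Mog chose, so this count is not independent of the stage rule. The part of the rule in it was not tested. Without the deepest cell of each library, Ermn and Mobp were the only genes of this list to pass. With Mag and Mog the 23 genes had a median log2 of -1.42, against 0.00085 over all genes, and 3 had positive estimates. Ermn had 34.1 and 0 CPM in NdpKO and 535 and 446 CPM in NdpWT, from 11 and 0 UMIs in NdpKO and 295 and 59 UMIs in NdpWT. NdpKO replicate 2 had none, and the groups did not overlap (log2 fold change -4.18, SE 0.48, adjusted p = 0.000229). Gsn, gelsolin, an actin-severing protein at chr2:35256380-35307892 (GRCm38), had 105 and 68.4 CPM in NdpKO and 1609 and 703 CPM in NdpWT (log2 fold change -3.70, SE 0.43, adjusted p = 0.000229). Apod, a lipid carrier of mature oligodendrocytes, had 55.8 and 68.4 CPM in NdpKO and 821 and 310.1 CPM in NdpWT (log2 fold change -3.44, SE 0.51, adjusted p = 0.00124). Mog, a myelin surface protein, chose these cells together with Mag, so its 211 and 68.4 CPM in NdpKO and 1018 and 734 CPM in NdpWT are a description with no test. All of these lay lower in both NdpKO libraries than in either NdpWT library. In NdpKO replicate 1 all 11 Ermn UMIs and 27 of 34 Gsn UMIs came from the deepest cell, and without the deepest cell of each library Ermn passed (adjusted p = 0.021) and Gsn did not (log2 fold change -4.74, adjusted p = 0.246).

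Car2, carbonic anhydrase of myelin, had 18.6 and 0 CPM in NdpKO and 329.8 and 151 CPM in NdpWT (log2 fold change -4.07, SE 0.60, adjusted p = 0.00103). The tetraspanin Tspan2 was lower by less (log2 fold change -1.33, SE 0.33, adjusted p = 0.0462) and passed in 8 of 16 alternatives. Opalin and the gap junction gene Gjb1 passed as well, on 1 and 0 UMIs in NdpKO and 53 and 6 UMIs in NdpWT for Opalin and 1 and 0 UMIs in NdpKO and 74 and 8 UMIs in NdpWT for Gjb1. With 1 NdpKO UMI each, no fold is given for them. Mbp did not pass, with 10332 and 7909 CPM in NdpKO and 11723 and 10074 CPM in NdpWT (log2 fold change -0.38, SE 0.28, adjusted p = 0.808), nor did Cnp (log2 fold change -0.51, SE 0.28, adjusted p = 0.628). Mal and Mobp did not pass either, on 1 and 0 UMIs in NdpKO and 1147 and 71 UMIs in NdpWT for Mal and 427 and 0 UMIs in NdpKO and 1849 and 582 UMIs in NdpWT for Mobp (edgeR, adjusted p = 0.0844 for Mal and 0.884 for Mobp). In the alternatives Mal passed in 10 of 15, with an adjusted p of 6.6e-09 by DESeq2, and Mobp in 6 of 16, among them the test without the deepest cell of each library (adjusted p = 0.021). Of the 427 Mobp UMIs of NdpKO replicate 1, 426 came from its deepest cell.

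Other genes lower in NdpKO were Nudt4, a diphosphoinositol phosphatase (log2 fold change -3.39, SE 0.42, adjusted p = 0.000229), the tubulin glutamylase Ttll7 (log2 fold change -3.53, SE 0.47, adjusted p = 0.000325), the phosphatase inhibitor Ppp1r14a (log2 fold change -4.15, SE 0.55, adjusted p = 0.000325), Pdlim2 (log2 fold change -3.35, SE 0.47, adjusted p = 0.000686) and Igsf8 (log2 fold change -3.02, SE 0.46, adjusted p = 0.00122). Gucy1a1, a guanylate cyclase subunit, had 2 and 0 UMIs in NdpKO and 104 and 22 UMIs in NdpWT, and Clmn had 0 and 0 UMIs in NdpKO and 50 and 23 UMIs in NdpWT. Of 15 transcription factor genes, Nkx6-2 (log2 fold change -2.21, SE 0.43, adjusted p = 0.0087) and Prox1 fell, on 2 and 0 UMIs in NdpKO and 29 and 14 UMIs in NdpWT for Prox1, and Tcf7l2 was higher. Egr1, an immediate early gene, was the 1 dissociation stress gene of 10 tested to pass, on 1 and 0 UMIs in NdpKO and 35 and 15 UMIs in NdpWT. None of the 22 cholesterol genes and none of the 13 myelin lipid genes passed, with 8 of 22 and 1 of 13 positive estimates.

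Of 14 committed precursor genes tested in myelinating cells, 2 were higher and 0 lower in NdpKO, and of 10 precursor genes 2, Tnr and Bcan, were higher and 0 lower, where 0.316% of all genes tested were higher. Tnr is also the precursor gene that was higher in myelinating cells than in precursors. Enpp6 had 1752 and 2758 CPM in NdpKO and 747 and 741 CPM in NdpWT (log2 fold change 1.45, SE 0.29, adjusted p = 0.00984). Itpr2, a calcium channel of the endoplasmic reticulum that marks newly formed oligodendrocytes, had 1762 and 1618 CPM in NdpKO and 614 and 711 CPM in NdpWT (log2 fold change 1.24, SE 0.27, adjusted p = 0.0205). The NdpKO libraries lay above the NdpWT libraries in both genes. Tcf7l2 had 862 and 1162 CPM in NdpKO and 402 and 242 CPM in NdpWT (log2 fold change 1.44, SE 0.31, adjusted p = 0.0205), Tnr had 1287 and 1937 CPM in NdpKO and 542 and 673 CPM in NdpWT (log2 fold change 1.26, SE 0.28, adjusted p = 0.023), and the matrix proteoglycan Bcan had 648 and 524 CPM in NdpKO and 241 and 166 CPM in NdpWT (log2 fold change 1.39, SE 0.34, adjusted p = 0.0387). The adhesion gene Cadm1 (log2 fold change 1.86, SE 0.41, adjusted p = 0.023) and the noncoding RNA gene 9630013A20Rik (log2 fold change 1.30, SE 0.28, adjusted p = 0.0222), which was also among the genes most tied to myelinating cells (4.84 ± 1.04 against precursors), passed too. The others named by rank of p were D430041D05Rik (log2 fold change 1.92, SE 0.37, adjusted p = 0.0087), Gm38039 (log2 fold change 1.74, SE 0.39, adjusted p = 0.023), Dcaf17 (log2 fold change 1.97, SE 0.46, adjusted p = 0.0347) and Lrrc42 (log2 fold change 1.54, SE 0.37, adjusted p = 0.0364). Fyn (log2 fold change 0.57, SE 0.27, adjusted p = 0.504), Bmp4 (log2 fold change 0.59, SE 0.32, adjusted p = 0.635) and Sox10 (log2 fold change 1.02, SE 0.32, adjusted p = 0.155) did not pass.

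**Figure D4:**
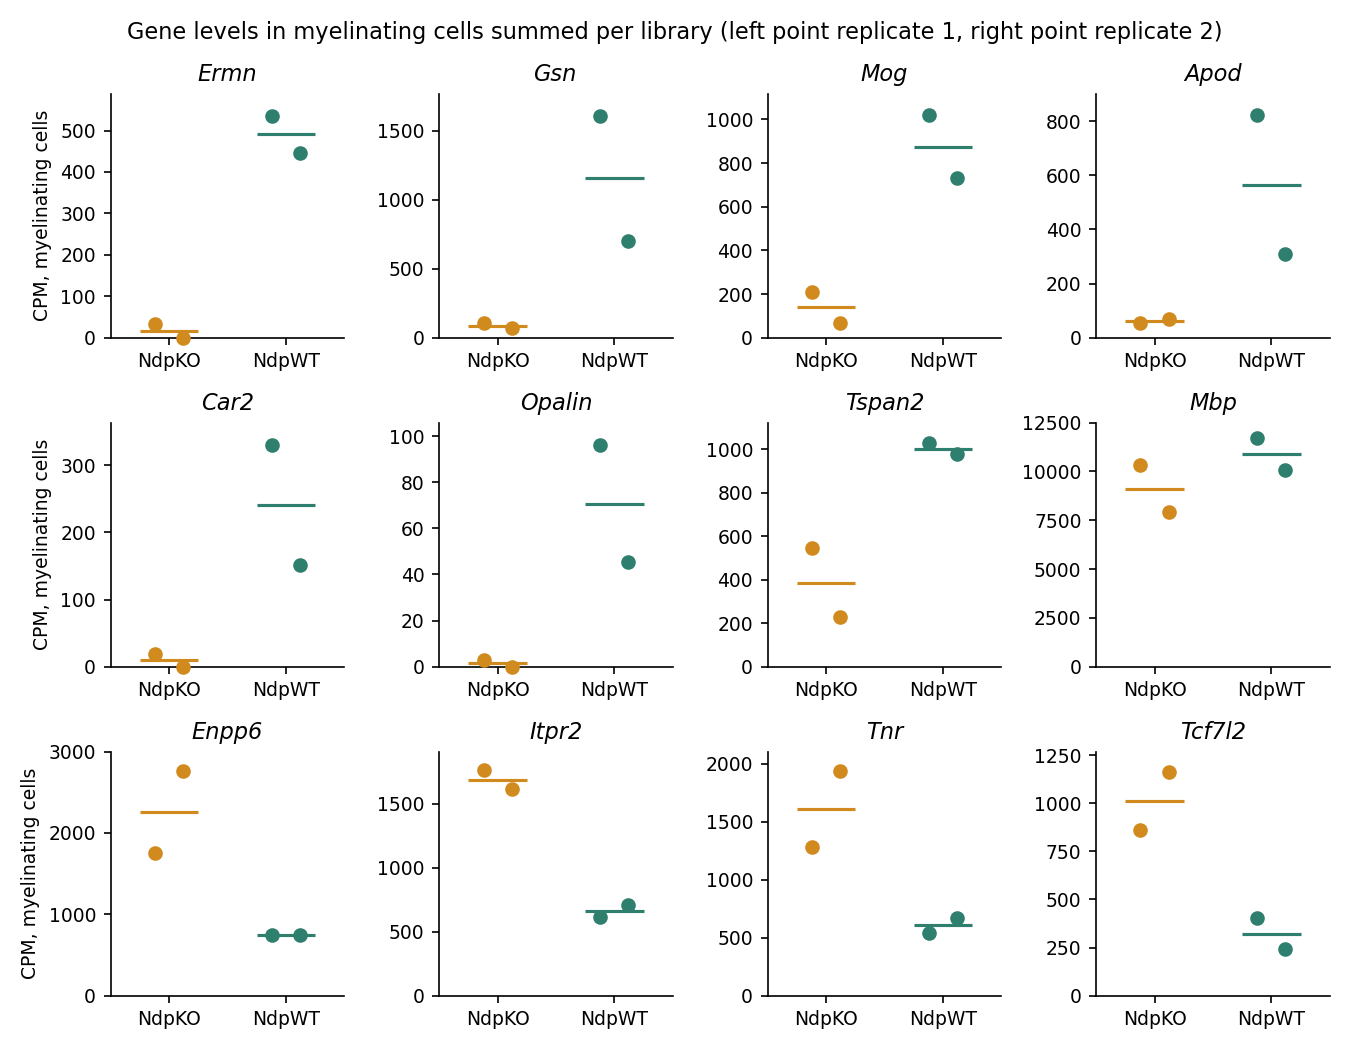
CPM of 12 genes in myelinating cells summed per library, with NdpKO on the left and NdpWT on the right of each panel, points as libraries and the line as their mean, with the deepest cell of each library included. Ermn, Gsn, Mog, Apod, Car2, Opalin and Tspan2 lie lower in both NdpKO libraries, Mbp overlaps, and Enpp6, Itpr2, Tnr and Tcf7l2 lie higher in both.

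These calls rested unequally on the processing. Ermn passed in all 16 alternatives, Igsf8 and Ttll7 in all 13 in which they were tested, and Gucy1a1 and Clmn in all 12, but these last 4 could not be tested without the deepest cells. Gsn and Apod passed in 14 of 15 and Nudt4, Pdlim2 and Ppp1r14a in 13 of 14, each lost without the deepest cell of each library, and Car2 in 12 of 15. Among the higher genes, Cadm1 passed in 11 of 15, Tcf7l2 in 10 of 16, Enpp6 in 9 of 16, Dcaf17 in 9 of 15, D430041D05Rik in 9 of 14, Itpr2 and Tnr in 8 of 16, Gm38039 in 7 of 13, Bcan and Lrrc42 in 7 of 15 and 9630013A20Rik in 7 of 16. None of the 13 higher genes passed without the deepest cells, where Enpp6 had a log2 fold change of 1.34 (adjusted p = 0.356). Dcaf17 fell to a log2 fold change of 0.75 (adjusted p = 0.691) without NdpKO replicate 1, and 9630013A20Rik to 0.15 (adjusted p = 0.991) without cells holding RNA of other types. The 27 genes followed kept their direction in every alternative in which they were tested. They were chosen because they passed in these same libraries, so a kept direction is no separate support. NdpKO replicate 1 had the deepest myelinating cells and 7.16% red cell UMIs in them, against 0.0911% in NdpKO replicate 2 and 1.62% and 0.143% in the NdpWT libraries. A deep cell can meet the rule for Mag with less Mag per UMI. When the stage was taken from counts thinned to 1000 UMIs, which left 8 and 5 NdpKO and 37 and 16 NdpWT cells, 25 genes passed, 23 of them among the 67. Of 271 genes tested when the counts themselves were thinned, 9 passed, among them Ermn (adjusted p = 0.014), Mobp (0.00645), Tnr (0.0292) and Itpr2 (0.0378), and the rule genes Mag and Mog.

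The genes Mal, Ermn, Mobp and Opalin were also counted per cell, a choice made after their values had been seen. At least 2 of the 4 had a UMI in 1 of 14 and 0 of 6 NdpKO myelinating cells and in 23 of 48 and 6 of 18 NdpWT cells, which is 7.14% and 0% in NdpKO and 47.9% and 33.3% in NdpWT. A share of 0 of 6 says little by itself, since thinned detection of 0 of 6 has an exact upper bound of 45.9%. None of the 4 genes was seen in 11 of 14 and 6 of 6 NdpKO cells and in 15 of 48 and 8 of 18 NdpWT cells. The NdpKO cell with 3 of the 4 was the deepest of all, with 84467 UMIs. The NdpKO myelinating cells had medians of 25823 and 3995.5 UMIs, and the NdpWT cells with at least 2 of the genes had medians of 2929 and 1287 UMIs. The deepest cell of each NdpWT library, with 74312 and 46488 UMIs, held 4 and 3 of the genes. The part of depth in these shares was not tested beyond the thinned values. At 1000 UMIs a cell, Mobp was detected in 1 of 14 and 0 of 6 NdpKO cells and 30 of 48 and 8 of 18 NdpWT cells, and Ermn in 0 of 14 and 0 of 6 NdpKO cells and 15 of 48 and 5 of 18 NdpWT cells. In macrophages, taken as a class that should lack these genes, Mobp was detected in 0.19% and Ermn in 0.114%. Free RNA itself was not measured. Cells of 1 pool are not replicates, so these shares are values with no test.

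**Figure D5:**
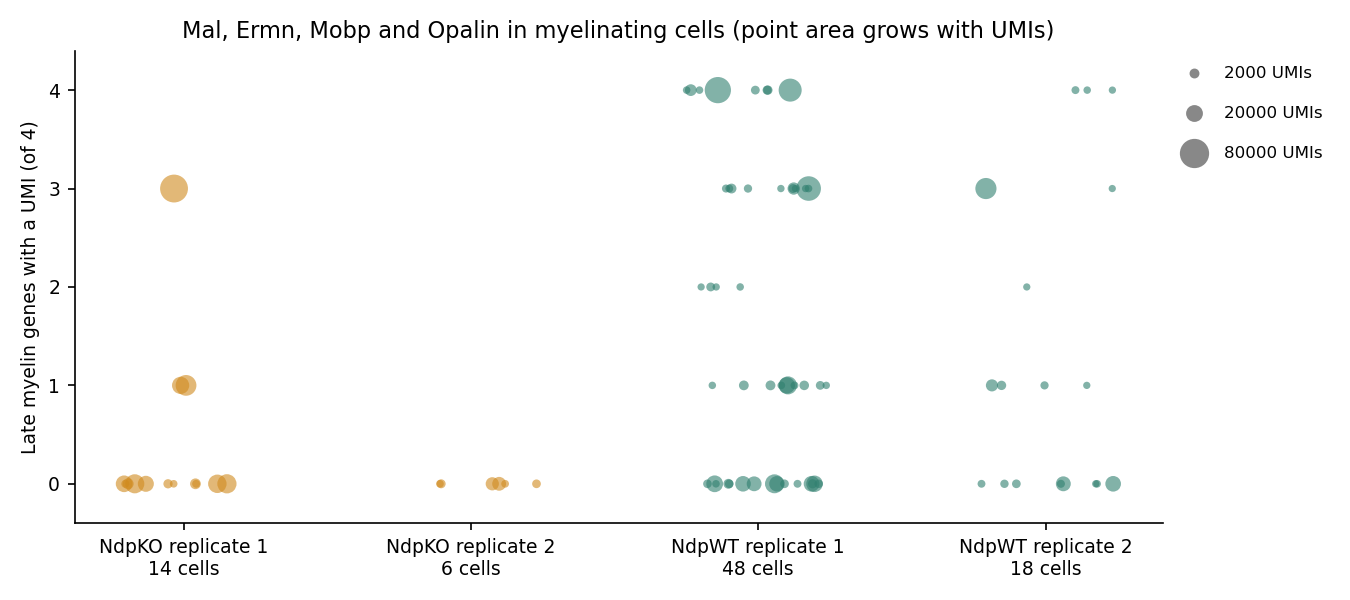
Number of the 4 late myelin genes Mal, Ermn, Mobp and Opalin (y) with a UMI in each myelinating cell, by library (x), with point area growing with the cell's UMIs and points spread sideways for sight. The NdpKO cells sit at 0 or 1 apart from the cell of 84467 UMIs, while 23 of 48 and 6 of 18 NdpWT cells lie at 2 or above.

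Summed over whole marker lists, the myelinating cells had 14004 and 17215 CPM of the 10 committed precursor markers in NdpKO, against 10989 and 9916 CPM in NdpWT. They had 32482 and 23796 CPM of the 12 myelin markers, which include the rule genes Mag and Mog, in NdpKO, against 63339 and 49128.5 CPM in NdpWT. The 10 precursor markers summed to 1777 and 2505 CPM in NdpKO and to 1317 and 1269 CPM in NdpWT. Tnr, the marker that was higher in myelinating cells than in precursors, gave 415 and 85 of these UMIs in NdpKO. It gave 299 and 89 in NdpWT, and the rest of the precursor list was not higher in NdpKO. Without the deepest cell of each library the myelin sums overlapped, at 15263 and 26134 CPM in NdpKO and 53184 and 19239 CPM in NdpWT, while the committed precursor sums did not, at 15871 and 15784 CPM in NdpKO and 11983 and 12698 CPM in NdpWT. The granule markers of these cells were 11.5 and 91.1 CPM in NdpKO and 80.2 and 128 CPM in NdpWT, and the Schwann markers 2.88 and 0 CPM in NdpKO and 25.0 and 45.3 CPM in NdpWT. The part of these in the genotype difference was not tested, and the litter, run and cell yield of each pool cannot be told apart from the genotype with 2 pools each.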

How the data were processed

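Droplet RNA counts of 4 libraries were analysed. Per the file headers and the submitters' processing notes, the authors made the UMI count matrices with Cell Ranger 6.1.2 on mm10, and they were deposited as raw counts of 32285 features. Removal of doublets or free RNA is not stated, and free RNA was not corrected. The members and gene lists were chosen with earlier results of these data known. Counts were summed per library and stage and tested with edgeR 4.0.16 (quasi-likelihood, TMM factors, filterByExpr with a minimum count of 10, R 4.3.3). Genotype log2 fold changes are NdpKO over NdpWT from that test. The CPM printed for single genes are plain shares without TMM factors and without 5 red cell genes. CPM sums over marker lists are shares of all UMIs, red cell genes included. Named genes were the 10 of lowest p in each direction past an adjusted p of 0.05, the 12 largest stage changes each way, and examples from the 17 lists; some of these are not reported here. Scrublet (scanpy 1.11.5) marked barcodes at 0.8% per 1000, since its automatic threshold marked 3 barcodes (0.0527%) in NdpKO replicate 1, and the marked cells were left out only in an alternative. Shares have exact binomial intervals, which cover counting error only. P-values rest on 2 pools per genotype. The tests were checked on simulated counts.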

Additional observations from a re-analysis of the deposited data

How the results depend on the processing

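With 2 libraries a genotype the counts of called genes moved with single libraries and settings, and the causes were not tested. In all lineage cells (0 called) DESeq2 called 2 genes, no filter on low counts 42, the replicate block 13, leaving out cells of 5 or more granule UMIs 2, and leaving out 1 library 0 to 83, the highest without NdpWT replicate 1. In precursors (0 called) no filter gave 2, the replicate block 11, and leaving out 1 library 0 to 69, the highest without NdpKO replicate 2. Where a genotype is left with 1 library, that library is assumed to vary like the others. In myelinating cells (67 called, a test added after the data were seen) DESeq2 gave 18, leaving out cells with RNA of other types 14, leaving out cells of over 10% red cell UMIs 155, the stage from thinned counts 25, thinned counts 9 of 271 tested, leaving out the deepest cell of each library 3 of 3281 tested, the replicate block 76, and leaving out 1 library 42 (without NdpWT replicate 1) to 126 (without NdpKO replicate 2). The replicate numbers do not mark the litter match in the labels. Deviations of libraries with the same number correlated at 0.362 in all cells, 0.217 in precursors and 0.106 in myelinating cells, with only 2 pairs.

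The share of lineage cells differed by -1.18 to -0.21 points without 1 library, the precursor share by -11.3 to 4.11 points without 1 library and by 0.264 points without cells holding RNA of other types, and the cycling share of precursors by -21.2 to 8.78 points. Without cells of over 10% red cell UMIs the cycling share differed by -0.81 points. Genes higher in myelinating cells than in precursors (612) numbered 976 with centring, 329 with a pseudocount of 50 CPM, 403 without cells of other types' RNA and 668 to 719 without 1 library. Genes lower (1560) numbered 943, 333 with that pseudocount and 1420 to 1939 without 1 library. Changes of 2-fold or less between genotypes were mostly beyond the depth of these cells. In simulated counts 5.41%, 5.06% and 0% of 2-fold changes were found in all lineage cells, precursors and myelinating cells. For 4-fold changes these shares were 77.2%, 72.9% and 87.8%.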
